A study of Drosophila melanogaster with 2 samples.

Results

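Of the 8714 ChIP-seq peak summits of the slbo-eGFP embryo line on the 6 major chromosome arms, 1213 lay within 500 bp of annotated start sites of at least 2 protein-coding genes transcribed in opposite directions. They made up 13.9% of the summits (95% Wilson interval, 13.2 to 14.7%) and 31.8% of the 3813 summits near any coding start site (30.4 to 33.3%). Members were chosen by position and annotation alone, so neither peak signal nor sequence entered the choice. The samples were 2 biological replicates of whole Drosophila melanogaster embryos from a transgenic strain, slbo-GFP, carrying Slbo fused to enhanced green fluorescent protein. Their age was 8 to 24 h by the source label, while the separate age label holds a number of hours that cannot be an embryo's age. Slbo is itself the tagged factor, the transgene was present in both samples, and the untagged gene was not described as removed. The sample descriptions name an antibody against GFP, whereas the antibody label reads slbo; with the latter, untagged Slbo would be recovered too. Chromatin was sonicated, and a control precipitation was not used here, so no background from embryos without the transgene stands beside these values. Whole embryos mix all cell types, so binding in fewer cells and weaker binding per cell cannot be told apart.

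Slbo (slow border cells) is a C/EBP protein of flies, a bZIP (basic leucine zipper) factor known for the migration of border cells in the ovary and also present in embryonic epithelia. C/EBP proteins bind DNA as dimers at a palindromic site, of which TTGCGCAA is the usual best form. In the compact fly genome many genes sit head to head, with their start sites facing away from each other across a short stretch of DNA that serves as promoter for both. Such divergent promoters are known for housekeeping genes, and many carry the DNA replication-related element (DRE, TATCGATA), the site of the factor Dref. In contrast, genes switched on in particular tissues are more often known for TATA boxes, initiator elements or GAGA sites.

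The DNA between the divergent start sites is shown for 9 pairs, so that the position and the letters of the promoter can be seen beside the values that follow. All are plus-strand sequences, 5′ to 3′, of the RefSeq copy of dm6, running from the base after the minus-strand start to the base before the plus-strand start, and none overlaps an annotated exon. The first 4 belong to 4 of the strongest divergent summits, and capitals mark runs of 8 or more bases made of A and T only.
Tcs5/CHMP2B, chr3L:5139396-5139618: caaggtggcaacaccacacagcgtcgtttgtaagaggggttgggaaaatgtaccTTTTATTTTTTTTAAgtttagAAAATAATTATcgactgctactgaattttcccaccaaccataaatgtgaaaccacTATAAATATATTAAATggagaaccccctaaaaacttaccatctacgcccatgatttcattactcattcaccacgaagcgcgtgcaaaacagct
Atat/Shc, chr3L:9426759-9427009: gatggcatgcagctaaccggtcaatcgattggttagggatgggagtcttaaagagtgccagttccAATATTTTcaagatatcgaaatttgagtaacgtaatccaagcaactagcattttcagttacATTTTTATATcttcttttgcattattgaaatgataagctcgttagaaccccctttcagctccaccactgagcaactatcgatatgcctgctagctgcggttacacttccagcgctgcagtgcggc
Art3/mRpS10, chr3R:15229409-15229664: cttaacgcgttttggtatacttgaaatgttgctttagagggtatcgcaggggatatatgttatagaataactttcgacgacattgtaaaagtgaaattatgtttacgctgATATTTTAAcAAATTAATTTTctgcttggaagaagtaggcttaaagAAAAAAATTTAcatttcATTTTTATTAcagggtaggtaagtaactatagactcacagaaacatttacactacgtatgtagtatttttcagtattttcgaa
CG7601/CIA30, chr3R:29736746-29736964: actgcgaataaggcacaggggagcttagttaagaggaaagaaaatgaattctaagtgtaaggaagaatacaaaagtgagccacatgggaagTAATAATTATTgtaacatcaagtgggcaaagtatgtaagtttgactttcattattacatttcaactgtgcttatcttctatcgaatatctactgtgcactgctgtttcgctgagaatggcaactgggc
The next 2 hold a match to the C/EBP consensus within 50 bp of the summit, marked by capitals. The consensus searched consists of the 16 8-mers made of TT, a purine, a pyrimidine, a purine, a pyrimidine and AA.
CG13390/CG17294, chr2L:8376798-8377034: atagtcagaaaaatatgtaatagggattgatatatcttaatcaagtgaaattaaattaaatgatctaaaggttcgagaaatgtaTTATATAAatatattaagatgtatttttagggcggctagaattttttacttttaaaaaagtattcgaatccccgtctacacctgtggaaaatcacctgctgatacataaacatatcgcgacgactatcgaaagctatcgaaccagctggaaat
Kmn2/CG2698, chr3R:8001310-8001561: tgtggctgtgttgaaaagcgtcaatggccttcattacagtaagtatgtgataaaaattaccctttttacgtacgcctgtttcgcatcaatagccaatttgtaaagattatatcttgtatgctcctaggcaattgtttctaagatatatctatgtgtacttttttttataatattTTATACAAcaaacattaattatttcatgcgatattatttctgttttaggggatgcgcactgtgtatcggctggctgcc
The last 3 hold a DRE within 50 bp of the summit, again in capitals.
brun/CG2614, chr2L:20656179-20656425: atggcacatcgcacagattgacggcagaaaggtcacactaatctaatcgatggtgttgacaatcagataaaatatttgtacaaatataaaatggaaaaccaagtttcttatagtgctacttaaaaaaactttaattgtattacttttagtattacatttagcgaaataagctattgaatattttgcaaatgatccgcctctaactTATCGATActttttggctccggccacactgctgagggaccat
EloB/Srp14, chr3R:20579851-20580114: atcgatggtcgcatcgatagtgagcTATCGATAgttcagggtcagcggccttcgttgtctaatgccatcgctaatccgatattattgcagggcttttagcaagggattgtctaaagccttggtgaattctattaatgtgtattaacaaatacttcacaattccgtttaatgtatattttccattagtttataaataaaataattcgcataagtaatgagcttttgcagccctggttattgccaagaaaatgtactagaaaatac
grsm/Spc25, chr3R:12961644-12961744: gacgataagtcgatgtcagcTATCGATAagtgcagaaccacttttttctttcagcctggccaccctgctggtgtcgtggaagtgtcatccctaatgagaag
In these windows the summit fell at base 96 of 223 for Tcs5/CHMP2B, 138 of 251 for Atat/Shc, 128 of 256 for Art3/mRpS10 and 110 of 219 for CG7601/CIA30, close to the middle of each. Printed pairs were chosen among summits lying between the starts, so a place inside the window was fixed by the choice. The A+T content between the starts was 61.9%, 57.0%, 69.9% and 62.1% in the same order.

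Divergent gene pairs held a summit more often than genes with a single promoter direction. Among the 13945 coding genes of Ensembl release 115, 5141 (36.9%) had a start site within 1000 bp of a start of a coding gene on the other strand, and they formed 2720 such pairs. A summit within 500 bp of both genes was found for 1221 pairs, which is 44.9% (43.0 to 46.8%). Of the 8804 genes without such a partner, 1742 had a summit within 500 bp of a start site, which is 19.8% (19.0 to 20.6%). The difference was 25.1 percentage points (95% Newcombe interval, 23.1 to 27.1), although the stretch lying within 500 bp of both genes of a pair is narrower than the promoter region of a single gene with the same number of starts. It sets pairs against single genes. Some pairs share a gene or a summit, and the interval takes them as independent. Replicate 1 alone gave 44.1% of pairs against 18.0% of single-direction genes, and replicate 2 alone gave 34.7% against 13.2%. The difference in the replicates' own lists was 23.8 ± 3.23 percentage points (SD, n = 2).

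Counted per gene, 2334 genes shared a summit with a divergent neighbour, which is 45.4% of the genes in pairs; over all coding genes the share was 16.7%. Counting also summits near the gene alone, 2714 genes in pairs had a summit (52.8%), against 32.0% of all coding genes. Most pairs had a single summit (1136 pairs), 84 had 2, and 1 pair, CG32066/CG8003, had 3 summits with a highest signal of 109. Of the 1499 pairs without a thresholded summit, 734 (49.0%) had a summit lower in the ranked list, and 765 of all 2720 pairs (28.1%) had none in either. Among the 5 most closely spaced pairs with no ranked summit were 2 head-to-head pairs of histone genes, His4:CG33869/His3:CG33863 and His4:CG33871/His3:CG33860, whose starts lie 26 bp apart in the repeated histone cluster on 2L. Reads from repeated copies cannot be assigned to a single copy, so absence of a peak there is uncertain. The other 3 were CG4287/CG5516, Gabat/Tom20 and Nepl11/cpx, with gaps of 17, 18 and 22 bp. Both replicates' own lists held a summit for 910 pairs (33.5%), while 290 pairs had a summit only in replicate 1 and 34 only in replicate 2.

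The 2 or more genes were arranged head to head at 1189 of the 1213 summits (98.0%, 97.1 to 98.7%), meaning that the nearest minus-strand start lay at the lower coordinate. At the other 24 the 5′ ends overlapped, the strongest of them at CG4741/Adck1 (signal 1127; 668 in replicate 1 and 469.8 in replicate 2). Adck1 encodes a mitochondrial atypical kinase. Most summits touched exactly 2 coding genes (1148), 58 touched 3 and 5 touched 4. A summit of signal 868 at PIG-M/NC2alpha touched 5 coding genes, and a summit of signal 857 on 3R touched 10, all annotated as alternative precursor genes of the trans-spliced mod(mdg4) locus, which encodes chromatin insulator proteins. By arm, divergent summits made up 14.3% of summits on 2L, 14.5% on 2R, 13.3% on 3L and 16.3% on 3R. The share was 10.8% on X (9.36 to 12.4%), an interval that did not overlap that of 3R (14.8 to 18.0%), and 1 of 10 summits on chromosome 4 was divergent. X and 3R were set side by side after the values were seen. The number of annotated pairs on each arm is not given here, and its part in these shares was not tested.

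The position of the summits relative to the starts is given as a description, since members had to lie within 500 bp of a start of each strand. Of the 1189 head-to-head summits, 1001 (84.2%, 82.0 to 86.2%) fell in the interval between the nearest starts, a place the rule forces for the widest gaps, and 423 (35.6%) fell within 50 bp of its midpoint. The share between the starts was 17.3% for gaps under 50 bp, 53.0% at 50 to 99 bp and 88.1% at 200 to 249 bp. Neither direction was preferred, with 586 of 1189 summits (49.3%, 46.5 to 52.1%) nearer to the plus-strand start. The median summit was 60 bp upstream of the nearest coding start, and 91.3% lay within 150 bp of a start. For summits near starts of a single direction these values were 82.0 bp and 58.6%, but a divergent summit has at least 2 starts within 500 bp and its distance is to the nearest, so the rule itself favours the shorter distance. The median distance between the starts was 290.0 bp, with quartiles at 195 and 400 bp. The share between the starts and the distances depend on which starts are annotated, and the interval itself narrows as the starts come closer.

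The share of pairs with a summit went up and down with their spacing. The share with a summit was 61.8% of 233 pairs at 200 to 249 bp (55.4 to 67.8%), 58.2% of 287 pairs at 250 to 299 bp (52.4 to 63.7%) and 61.4% of 389 pairs at 300 to 399 bp. Intervals overlapping these were found at 50 to 99 bp, with 56.1% of 237 pairs (49.8 to 62.3%), and at 400 to 499 bp, with 53.9% of 254 pairs (47.8 to 60.0%). At 100 to 149 bp it was 50.2% of 205 pairs. It was 43.4% of 175 pairs under 50 bp, 38.5% of 143 pairs at 150 to 199 bp (30.9 to 46.6%) and 27.4% of 354 pairs at 500 to 699 bp, where the region within 500 bp of both starts becomes short. Those shares place a pair by its closest starts, whereas the signals that follow place a summit by the starts nearest to it. A pair and its summit can thus fall in different bins. CG5757/CG5098 had a gap of 40 bp as a pair and 505 bp at its stronger summit. The median signal was highest in value at 200 to 249 bp, with 286 (order-statistic interval, 237 to 354), and at 250 to 299 bp, with 250.1 (206 to 308). It was 212 at 300 to 399 bp (185 to 244), an interval that overlapped those of the bins on either side. It was 156 at 50 to 99 bp (138 to 179.7), 179 at 100 to 149 bp (130.4 to 230.2), 182 at 150 to 199 bp (129 to 241), 184 at 400 to 499 bp (167 to 211) and 189.8 at 500 to 699 bp (155 to 239).

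Taking 200 to 299 bp together, 326 summits had a median signal of 263 (234 to 308), and the 863 with other gaps had 184 (174 to 196). In the ranked lists of the replicates, the medians were 161 against 117 in replicate 1 and 103 against 73.9 in replicate 2. Of the 326, 49.1% were in the top signal quintile of the whole list and 33.1% of the other 863, a difference of 15.9 percentage points (9.67 to 22.2). They held 44 of the 100 strongest divergent summits, whereas they are 27.4% of the head-to-head members. This window of spacing was chosen after the values by spacing had been seen. A+T content at the summit moved with it, at 67.0% for gaps of 200 to 299 bp and 62.6% for other gaps; its part in the signal was not tested.

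**Figure D1:**
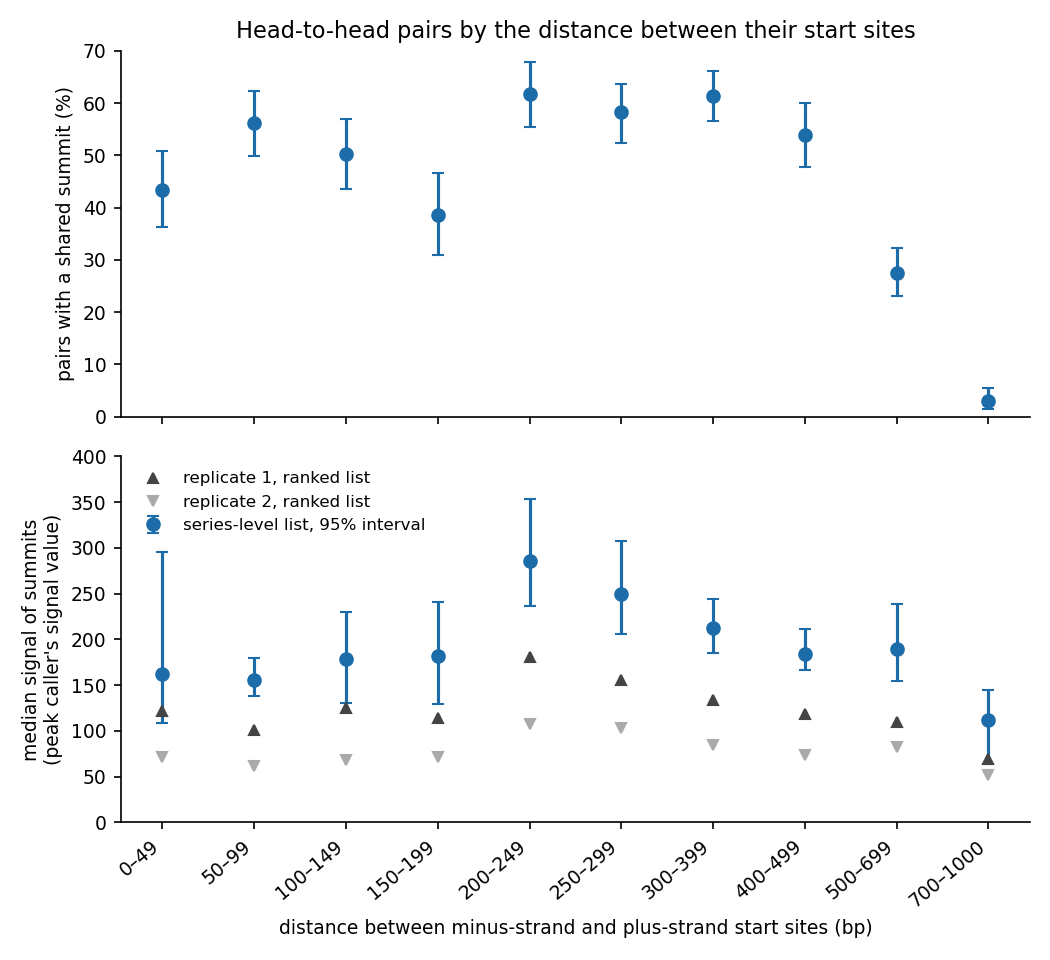
Head-to-head pairs by the distance between their start sites. The upper panel places a pair by its closest starts, and the lower panel places a summit by the starts nearest to it. The upper panel gives the percentage of pairs with a summit within 500 bp of both genes (95% Wilson intervals), and the lower panel the median signal of the divergent summits in the series-level list (95% intervals) and in the ranked list of each replicate; the share is 61.8% and the median signal 286 at 200 to 249 bp, and both are lower at 150 to 199 bp, at 38.5% and 182.

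Divergent summits were stronger than those at promoters of a single direction. Their median signal, the peak caller's value per peak, was 202 (189 to 215), against 133 (128 to 139) for 2600 single-direction summits and 105 (102 to 108) for 4696 summits outside promoters. The top signal quintile held 451 of them, which is 37.2%, against 22.5% of single-direction summits and 20.0% of all summits by construction. The difference between both promoter classes was 14.6 percentage points (11.5 to 17.8). In the replicates' own lists it was 12.7 points in replicate 1 and 7.45 in replicate 2, or 10.1 ± 3.70 (SD, n = 2), so the list of replicate 2 alone gave a smaller difference in the same direction. The share of divergent summits rose with the quintile of signal, from 4.36% in the lowest to 8.72%, 11.4%, 19.2% and 25.9% in the highest. They were 10 of the 25 strongest peaks of the whole list, 34 of the 100 strongest and 292 of the 1000 strongest. Over the 2 replicates an exact two-sided sign-flip test of the difference gave p = 0.5, the smallest it can give, and the intervals cover counting error over summits only.

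**Figure D2:**
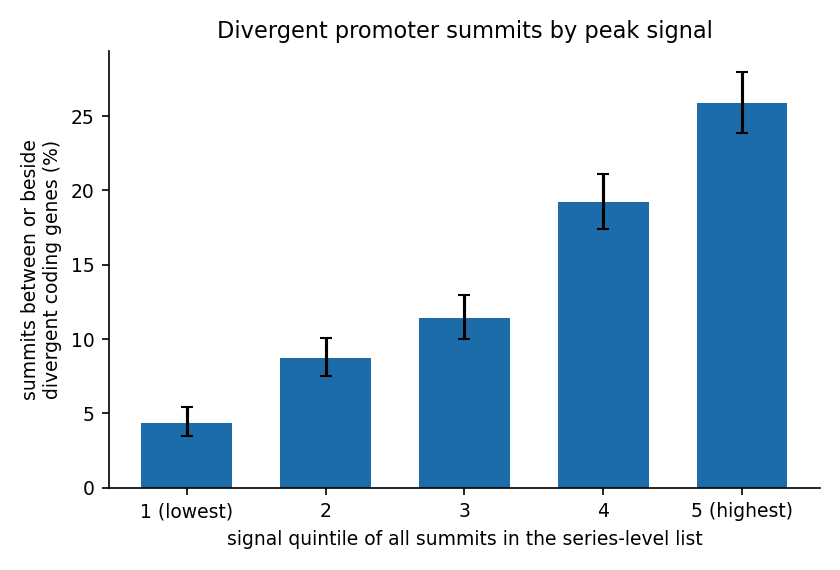
Percentage of summits that are divergent promoter summits in each quintile of the series-level list by signal, with 95% Wilson intervals. The share is 4.36% in the lowest quintile and 25.9% in the highest.

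Divergent and single-direction summits also differ in how close they lie to a start, and the signal difference was present within bins of that distance up to 250 bp. For summits 51 to 100 bp from the nearest coding start, the median was 230.3 (203 to 253) for divergent and 134 (127 to 147) for single-direction summits. At 101 to 150 bp it was 280.0 against 164, and at 0 to 50 bp it was 149.9 against 112. At 151 to 250 bp the medians were 229 (169 to 303) and 172 (154 to 194), whose intervals overlapped, and beyond 250 bp they were 116 for 20 divergent and 134 for 640 single-direction summits. Within 150 bp of a start in both classes, the difference in the top quintile was 17.6 percentage points.

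Divergent summits were recovered in both replicates more often. Of the 1213, 895 (73.8%) overlapped a thresholded peak of each replicate, against 57.4% of single-direction summits and 53.7% of all summits, a difference between the promoter classes of 16.4 percentage points (13.2 to 19.5). Replicate 1 held 94.3% of them and replicate 2 held 76.3%, and 39 (3.22%) were in neither list, compared with 12.6% of single-direction summits. The replicate lists differed in size, with 7124 and 5382 peaks on the arms. Over the 1202 members with a ranked peak in both replicates, Spearman's rho of the signals was 0.902 and Pearson's r of the log2 signals 0.896. Those are descriptions over summits, which share libraries; rho was 0.817 over single-direction summits. The summit of the matched replicate peak lay a median of 6 bp away in replicate 1 and 10 bp in replicate 2.

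**Figure D3:**
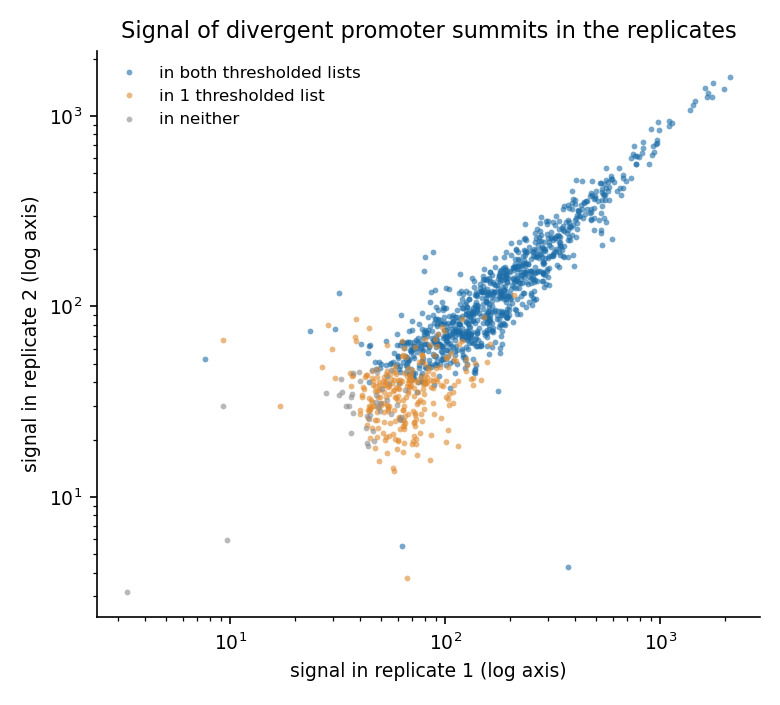
Signal of the 1202 divergent summits with a ranked peak in both replicates, on log axes, coloured by membership in the thresholded lists of the replicates. Strong summits lie along a narrow band, and those missing from a thresholded list are mostly at the low end of both axes.

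The strongest divergent summit, between Tcs5 (FBgn0035590), a kinase of the complex that modifies transfer RNAs, and CHMP2B (FBgn0035589), a subunit of the membrane-remodelling ESCRT-III complex, had a signal of 3695, with 2099.6 in replicate 1 and 1611 in replicate 2. The starts lie 224 bp apart on 3L, and the summit was 96 bp from the Tcs5 start and 128 bp from the CHMP2B start. Atat (FBgn0035989), an alpha-tubulin acetyltransferase, and Shc (FBgn0015296), a signalling adaptor, shared a summit of 3215 (1750.4 in replicate 1 and 1493 in replicate 2). Both summits stood among the 11 strongest peaks of the whole list.

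Art3, an arginine methyltransferase gene, and mRpS10, for a mitochondrial ribosomal protein, shared a summit of 2996 (1617 in replicate 1 and 1396 in replicate 2), placed 128 and 129 bp from the starts. mRpS23/CenG1A had 2983 (1743 and 1256) and mRpL23/CG9004 had 2915 (1653 and 1265). CG7601/CIA30, the latter an assembly factor of respiratory complex I, had 2544 (1419.9 and 1143), with the summit exactly 110 bp from either start. The values of the replicates come from separate lists, which are not stated to be on a common scale.

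Others of the 25 strongest members called in both replicates had varied roles. Chro, a chromosomal protein of interphase bands and the spindle, and Ssl1, a subunit of the general factor TFIIH, shared a summit of 2643 (1453 in replicate 1 and 1204 in replicate 2). brm, the ATPase of the SWI/SNF remodelling complex, shared a summit of 1668 (958 and 714) with Arl1, a Golgi GTPase. Elp5, an Elongator subunit, shared 1879.6 with CG1275, and fws, a Golgi tethering subunit, shared 2051 with Lamtor3, a Ragulator subunit of nutrient signalling. Mkk4, a kinase of the JNK cascade, shared 1509 with SLIRP2, and PolD2, a subunit of DNA polymerase delta, shared 1524 with CG13933. The 25th, CG13018/CG13016, had 1454. The start sites were 200 to 299 bp apart in 12 of the 25.

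The weakest members were Wsck/atl (11.1), porin/SmydA-3 (11.0), ebo/CG13373 (8.39), Exd2/CG5281 (6.31) and Oda/SmD3 (6.03). Each overlapped a stronger peak of the same list, with signals of 68.1, 109, 150.3, 105 and 78.8 in that order. Of the 12 members with a signal under 50, 11 lay beside a stronger overlapping peak, and of all members 43 did (3.54%). At the 500 bp limit, the last summits inside were sut4/CG2269 at 500 bp from the farther start (signal 55.7), and CG14968/ZnT63C (945) and beta4GalNAcTB/Cpsf100 (356) at 499 bp. Just outside were summits at Rok/RpS19a at 501 bp (109.6) and RpL7A/dx at 502 bp (101). The Rok/RpS19a pair also had a summit inside the limit, with a signal of 226.

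Among gene families taken by symbol, those with housekeeping roles had many members. Of 73 mitochondrial ribosomal protein genes, 58 (79.5%) stood in a divergent pair and 40 (54.8%) shared a member summit, against 16.7% of all coding genes. Among genes in pairs, 69.0% of the mitochondrial ribosomal protein genes shared a summit against 45.4% of all paired genes. Of 92 cytosolic ribosomal protein genes 31 (33.7%) shared a member summit, led by RpL34b/CG8132 (1072), RpS27/Nup37 (1034) and RpS21/CG3104 (776), and 72.8% had a summit of any kind near a start. Of those in pairs, 56.4% shared a member summit. Autophagy genes numbered 12 of 20 (60%), led by Atg2/CG12093 (1021), Atg17/Xe7 (757) and Atg18a/ERR (735), and 75% of those in pairs.

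Splicing and small nuclear ribonucleoprotein genes numbered 18 of 37 (48.6%), with snRNP-U1-C/gukh at 594. Nuclear pore and karyopherin genes numbered 13 of 27 (48.1%), aminoacyl-tRNA synthetases 15 of 32 (46.9%) with SerRS/CG17260 at 762, and vesicle traffic genes 48 of 117 (41.0%) with alphaCOP/CG13919 at 1326. RNA polymerase, Mediator and general transcription factor genes numbered 30 of 83 (36.1%), including Taf5/Pex6 (922), MED27/elm (895) and Polr2B/140up (835). DNA replication genes numbered 10 of 31 (32.3%), proteasome genes 15 of 48 (31.2%) and respiratory chain genes 24 of 92 (26.1%), the last led by ND-ASHI/Fum1 (946). Vacuolar ATPase genes, at 7 of 33 (21.2%), and translation initiation factors, at 8 of 44 (18.2%), stood near the 16.7% of all coding genes. Only genes in pairs can share a member summit. Of the families in this paragraph, 42.4% (vacuolar ATPase) to 85.2% (nuclear pore) of genes stood in pairs, against 36.9% of all coding genes. These families were picked with the high shares of such genes already known, and no test is attached to them.

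Genes of particular tissues were nearly absent. Chemoreceptor and odorant-binding protein genes shared 2 summits among 230 genes (Ir60e/CG13585, 189, and Gr63a/Lamtor4, 77.9), cuticle genes shared 1 among 144 (Lcp9/CG3594, 70.3, called in neither replicate), and none of 85 cytochrome P450 genes did. These genes also seldom stood in pairs, at 17.0%, 9.03% and 15.3% of the 3 families. Of those in pairs, 5.13% of the chemoreceptor, 7.69% of the cuticle and none of the cytochrome P450 genes shared a summit. Few genes of these 3 families had a summit of any kind near a start, against 32.0% of all coding genes. The shares were 3.48% of chemoreceptor, 2.08% of cuticle and 11.8% of cytochrome P450 genes, so their scarcity is not particular to divergent summits. Of 20 genes for basic leucine zipper factors, 4 stood in pairs and 1 shared a member summit, although 12 had a summit near a start. That gene was Irbp18, itself of the C/EBP family and known as the partner of Xrp1, with APP-BP1 at a signal of 377 (188 in replicate 1 and 182 in replicate 2).

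In 13 pairs both genes belonged to the families examined. RpS27 and Nup37, a ribosomal and a nuclear pore protein, led with 1034 (658 in replicate 1 and 386 in replicate 2). RPA1 and Mcm2, the single-strand binding protein and a helicase subunit of DNA replication, shared 604 (337 and 281) across 519 bp. Atg7 and Sec6, of autophagy and exocytosis, shared 531 (340.2 and 187), and Sf3b6 and Tnpo, of splicing and nuclear import, shared 462 (232 and 227). RpL28 and eIF1, a ribosomal protein and an initiation factor, shared 2 summits, of 447 and 138.

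The DNA under divergent summits was rich in A and T. Over the 101 bp centred on the summit, mean A+T content was 63.8% for divergent summits and 59.9% for single-direction summits. It was 51.3% and 57.3% in windows 400 to 500 bp to the right of the same summits. The mean was 62.0% over all summits and 57.8% over all windows of the arms, so the divergent flanks lay below the arms. At gaps of 250 to 299 bp, the plus-strand start lay a median of 142 bp from the divergent summit. A flank to the right then often begins past that start, in the transcribed direction, and is no neutral background. The same limit applies to the motif counts in flanks below. A run of 8 or more A and T bases was present in 70.9% of the divergent windows (68.3 to 73.4%), 59.2% of the single-direction windows (57.3 to 61.1%), 66.2% of the windows at summits outside promoters (64.9 to 67.6%), 66.8% of those near non-coding starts only (60.1 to 72.9%), 51.0% of all windows of that length on the arms and 30.0% of the divergent flanks. Among divergent summits the content rose with signal, from 59.7% in the lowest quintile to 67.2% in the highest, and the run was present in 89.0% of the 200 strongest and 54.0% of the 200 weakest. Single-direction summits rose likewise from 53.7% to 65.3%, and summits outside promoters from 54.8% to 67.2%, so the trend is shared. Summits outside promoters had a mean of 62.7%; in the middle quintile they had 66.3% and divergent summits 61.7%. The Tcs5/CHMP2B sequence above, with 3 such runs, and that of Art3/mRpS10, with 4, are examples.

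**Figure D4:**
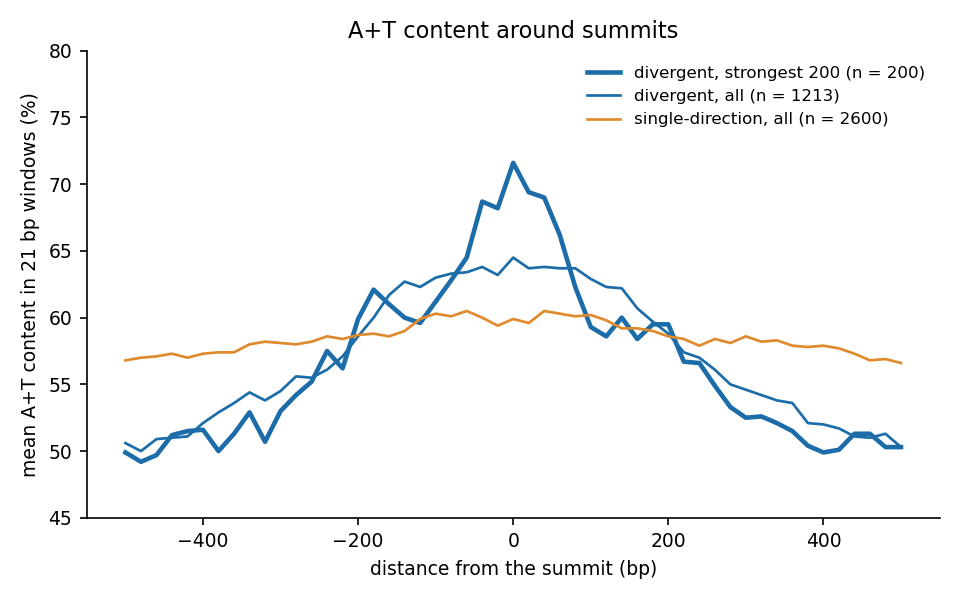
Mean A+T content in windows of 21 bp around the summit, for the 200 strongest divergent summits, all 1213 divergent summits and all 2600 single-direction summits. At the summit it is 71.6% for the strongest and 64.5% for all divergent summits, and at 500 bp to the right it is 50.3% for the strongest.

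The C/EBP consensus, the binding letters of Slbo's own family, was about as frequent at divergent summits as in all windows of the arms. It was found within 50 bp of 63 summits (5.19%, 4.08 to 6.59%), against 4.27% of single-direction summits, 6.18% of summits outside promoters and 4.55% of all windows of 101 bp. In the flanks of the divergent summits it was found in 38 (3.13%), and in 5.08% of the single-direction flanks. The difference between the classes was 0.925 percentage points (-0.474 to 2.49), it was -0.247 within 25 bp and 3.04 (0.966 to 5.26) within 100 bp. The best palindrome TTGCGCAA was under none of the 1213 (upper limit 0.316%) and under 6 of 2600 single-direction summits; that limit lies above its share of all windows (0.184%) and of all summits (0.149%), so a lower frequency was not detectable. The commonest forms were TTATACAA, at 14 summits (22.2% of the 63), and TTATATAA, at 13 (20.6%), the latter made of A and T only. The set is loose, so a match need not be a site of Slbo. The strongest members with the consensus within 50 bp of the summit were CG13390/CG17294 (2437), Mnat9/CG1792 (1969.9), Kmn2/CG2698 (1354), CG3744/CG11089 (1147) and CG12093/Atg2 (1021). At the midpoint of head-to-head pairs it was found in 6.88% of 1178 pairs with a summit and 4.80% of 1437 without, a difference of 2.07 points (0.277 to 3.95). A summit was found for 27.4% of 354 pairs at 500 to 699 bp and 2.94% of 306 pairs at 700 to 1000 bp. Pairs without a summit thus include more wide pairs, and the part of spacing in the midpoint difference was not tested.

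The DRE was at 82 divergent summits (6.76%, 5.48 to 8.31%), against 0.907% in their flanks and 0.275% of all windows. Single-direction summits had it at 4.42%, a difference of 2.34 percentage points (0.794 to 4.05). The interval of that difference included 0 when both classes were limited to summits within 150 bp of a start, a limit chosen after the data were seen, where the shares were 7.41% and 7.22%. With a 250 bp limit for promoters it was 0.351 points (-1.54 to 2.61), and in the list of replicate 1 it was 1.16 (-0.519 to 2.98), against 2.65 in that of replicate 2. In the other direction, the difference was 3.77 points (2.48 to 5.19) with a 1000 bp limit and 5.38 (3.34 to 7.57) within 100 bp of the summit. The DRE lay a median of 16.5 bp from the summit. The strongest members with it within 50 bp of the summit were CG12321/MED17 (794), dsd/Tusp (497), RpL41/NaCP60E (449), RpL28/eIF1 (447) and CG3337/Nelf-A (435). MED17 is a Mediator subunit and Nelf-A a factor of polymerase pausing. None of the 25 strongest members had a DRE within 50 bp of the summit, although the Atat/Shc sequence above holds TATCGATA farther away. The median signal of members with a DRE within 50 bp was 166. At pair midpoints it was in 5.52% of pairs with a summit and 4.38% of those without, a difference of 1.13 points (-0.529 to 2.87), between groups that differ in spacing.

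Other core promoter letters differed in part. Motif 1 (GGTCACAC) was at 3.13% of divergent and 2.19% of single-direction summits (difference 0.940, -0.116 to 2.18), and motif 7 (CATCNCTA) at 5.44% and 3.81% (1.63, 0.236 to 3.21), the latter interval including 0 in the list of replicate 1 (1.16) and within 25 bp (0.413). At least 1 of the DRE and these motifs was at 14.2% of divergent and 9.88% of single-direction summits, a difference of 4.30 points (2.09 to 6.64), and at 1.21% of summits outside promoters. TATAAA was at 18.5% and 15.1% (3.35, 0.826 to 5.99) against 11.7% of all windows, with an interval that included 0 in the list of replicate 2 (2.71, -0.424 to 5.96) and within 25 bp (1.21). It was at 24.6% of divergent summits in the top quintile and 11.8% in the lowest. The repeat GAGAGAG, the site of GAGA factor, was at 5 divergent summits (0.412%) and 1.88% of single-direction summits, a difference of -1.47 points (-2.12 to -0.759) that was -0.593 with an interval reaching 0 within 25 bp. At pair midpoints it was in 4 of 1178 pairs with a summit (0.340%) and 30 of 1437 without (2.09%), a difference of -1.75 points (-2.65 to -0.931). The initiator letters TCAGTT were at 5.28% of divergent and 6.81% of single-direction summits, a difference of -1.53 points whose interval included 0 (-3.06 to 0.140), and in 6.32% of all windows. They were in 4.75% and 7.86% of the same midpoints, a difference of -3.11 (-4.96 to -1.23). Pairs with and without a summit differ in spacing, as given for C/EBP, and its part in these midpoint differences was not tested. Within 100 bp of the summit, the divergent minus single-direction difference was 7.15 points for motif 7 (5.06 to 9.39). It was 6.94 for TATAAA (3.75 to 10.2) and -4.57 for GAGAGAG (-5.65 to -3.42). Motifs were read on both strands, and letter matches such as TATAAA and A+T runs can cover the same bases.

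The E-box CAGCTG was at 5.52% of divergent and 6.27% of single-direction summits (difference -0.746, -2.27 to 0.929). The AP-1 letters TGACTCA were at 8 divergent summits (0.660%), 0.769% of single-direction summits and 0.784% of all windows. The CRE letters TGACGTCA, like AP-1 a site of other leucine zipper factors, were at 1 divergent summit (0.0824%), 0.154% of single-direction summits and 0.133% of all windows. The intervals of these 3 differences included 0 within 50 bp of the summit, while within 100 bp the E-box difference was 3.17 points (0.857 to 5.61), the opposite direction.

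**Figure D5:**
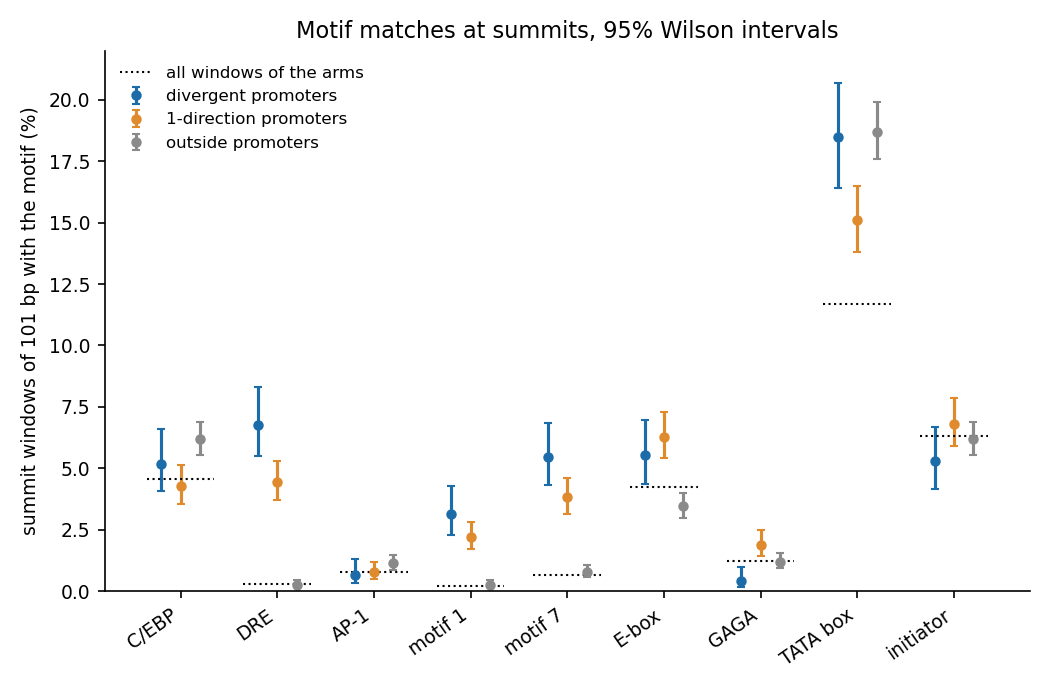
Percentage of 101 bp summit windows with each motif at divergent, single-direction and non-promoter summits (95% Wilson intervals); dotted lines give all windows of the arms. The DRE is at 6.76% of divergent, 4.42% of single-direction and 0.256% of non-promoter summits, and C/EBP lies between 4.27% and 6.18% in all 3 classes.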

How the data were processed

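The deposited peak lists (dm6, per the labels) were made by the authors with the irreproducible discovery rate (IDR). The aligner, the caller and their settings were not given in the sources used here. A peak has as signal the deposited value of the caller; scaling for depth is not stated, so levels were set side by side within single lists only. The deposited score is set from the IDR, and 830 was its minimum in the thresholded series-level list. The lists hold no read counts, so depth is unknown.

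The summits of the series-level, non-conservative thresholded list on the 6 major arms (2L, 2R, 3L, 3R, 4, X) were assigned to start sites of Ensembl release 115 without transposable elements, and 72 other peaks were left out. Single-direction summits lay within 500 bp of coding starts of 1 strand only. Motifs were read on both strands within 50 bp of a summit in the RefSeq copy of dm6. A replicate value is that of the overlapping peak of the replicate's ranked list, a thresholded peak first and then the nearest summit. Shares carry 95% Wilson intervals, their differences Newcombe intervals and medians exact order-statistic intervals. The intervals cover only counting error, with neighbouring peaks, and pairs that share genes or summits, taken as independent. Calculations used Python 3.11.15, NumPy 2.4.6 and SciPy 1.17.1, were checked on simulated data, and figures used matplotlib 3.10.9.

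Named were the 25 strongest members called in both replicates, the 5 weakest, the 3 nearest on either side of the 500 bp limit, pairs with most summits, up to 3 genes for each of 17 families by symbol, the 5 strongest with a C/EBP or DRE match, and the 5 closest pairs without a ranked peak; other pairs, those printed as sequences included, were chosen after their values were seen. Printed sequences came from the strongest members with starts at most 300 bases apart and no exon between them. Some of the pairs this rule names are not reported here. The members and lists were chosen with earlier results of these data known.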

Additional observations from a re-analysis of the deposited data

Results flagged for a closer look

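In data outside the comparisons above, the series-level ranked list held 23 peaks at divergent coding starts with a score of at least 830 that were absent from the thresholded list, of 224 such peaks on the arms (10.3%). The strongest were eIF4EHP/CG18428 (1731), Sirt6/pont (1177), crp/pkaap (526), Vha55/Snx3 (497) and mRpL47/CG8176 (418). Of the 23, 17 lay on 3R, which held 120 of the 224. None overlapped a thresholded peak of either replicate, although the ranked signals at eIF4EHP/CG18428 were 978 in replicate 1 and 749 in replicate 2. Adding all such peaks gave a difference between pairs and single-direction genes of 25.7 percentage points. Why these peaks are missing was not tested.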

How the results depend on the processing

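The higher share of pairs with a summit, the higher top-quintile share and the higher share in both replicates kept their direction, with intervals excluding 0, under every alternative run; the last cannot be computed without a replicate. No paired analysis of sample groups was possible because the labels give 1 group; over the 2 replicates' differences between classes an exact two-sided sign-flip test cannot go below p = 0.5. The number of divergent summits was 688 at 250 bp. The head-to-head share was 98.4% at 250 bp, 97.6% at 1000 bp, 97.6% in the conservative list, 97.9% at a score of 1000 only, 95.5% with 1 start per gene and 97.9 to 98.1% leaving out a replicate. The share between the starts was 81.4% at 250 bp, 81.2% at 1000 bp, 79.4% with 1 start per gene and 83.8 to 86.1% leaving out a replicate. For differences in percentage points, the 25 bp window gave -0.247 for C/EBP, 0.0440 for CRE, 0.413 for motif 7, 0.484 for the E-box, -0.593 for GAGA and 1.21 for TATAAA. The 100 bp window gave 3.04 for C/EBP, 0.105 for CRE, 2.53 for motif 1, 3.17 for the E-box and -2.95 for the initiator. It also gave 5.38 for the DRE, 7.15 for motif 7, 6.94 for TATAAA and -4.57 for GAGA. The DRE gave 0.351 at 250 bp, 3.77 at 1000 bp, 1.16 with 1 start per gene and, chosen after seeing the data, 0.185 within 150 bp of a start. Leaving out a replicate gave 1.16 to 2.65 for the DRE, 1.16 to 2.78 for motif 7, 2.71 to 3.75 for TATAAA, -2.92 to -1.15 for the initiator and -0.0376 to 0.00690 for AP-1. The causes were not tested. Unknown depth, 2 replicates and no control limit these values.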
